A study of Mus musculus with 12 samples.

Results

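Of the 10 genes that follow the oligodendrocyte lineage from precursor to newly forming oligodendrocyte, *Gpr17*, *Enpp6* and *Neu4* fell in mouse cortex between 4 and 19 months of age, *Neu4* by an amount close to the size threshold and with its call lost under 9 of 20 alternative settings. None of the 10 passed the test between *Gde2*KO and WT at either age. The genes were taken by symbol from the deposited transcript annotation, with the transcripts of each summed, and make up 10 of the 36047 genes listed. They were *Pdgfra* and *Cspg4* (surface proteins of precursors), *Olig1*, *Olig2*, *Sox10* and *Myrf* (lineage transcription factors), and *Gpr17*, *Bcas1*, *Enpp6* and *Neu4* (genes of committed precursors and newly forming oligodendrocytes).

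The study sequenced polyA RNA from the cortex of WT and *Gde2*KO mice at 4 months and at 19 months, with 3 libraries in each of the 4 groups. *Gde2*KO animals are *Gde2*-/-, a germline knockout of the gene for GDE2 (symbol *Gdpd5*), a surface enzyme that cuts the anchor of some membrane-tethered proteins. The knockout was therefore neither limited to 1 cell type nor to adult life, and WT animals were the controls at each age. The 19-month libraries were compared to look at splicing when TDP-43 is lost, and the 4-month libraries to look for earlier pathways. The study's legend for the 19-month RNA-seq gives 3 animals per genotype, as many as the libraries. The sex of each animal was not used here, and p-values measure only the spread between these libraries.

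Oligodendrocyte precursor cells persist in the adult cortex, where they divide and renew under signals such as PDGF. Some of them commit, pass through a short-lived stage marked by *Gpr17* and *Enpp6*, and then either make myelin or die. OLIG2 and SOX10 act along the whole lineage and MYRF switches on myelin genes. Bulk tissue RNA cannot tell fewer cells of a type from less RNA per cell.

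Values are normalized counts, scaled between libraries by the authors, and TPM, which also corrects for transcript length. Estimated depth was 46434259 to 59728495 reads at 4 months and 3707928 to 44604732 at 19 months, where 19-month *Gde2*KO library A and WT library A were shallow. In *Gde2*KO A, 25 reads lay behind *Neu4* and 28.1 behind *Enpp6*. *Gdpd5*, the targeted gene, stood at 684, 702 and 1199 normalized counts in 4-month WT and at 417, 585 and 403 in *Gde2*KO. At 19 months it stood at 1065, 1129 and 952 in WT and at 441, 456 and 560 in *Gde2*KO. In these counts the genotypes did not overlap at either age, whereas in TPM they overlapped at 4 months. The fall passed the test only at 19 months (log2 fold change -1.11, SE 0.12, limma adjusted p = 0.0111, against -0.85, SE 0.25, adjusted p = 0.463 at 4 months). The difference between those values did not pass its own test (adjusted p = 0.669).

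The 4-month libraries differed in their levels of regional marker genes. Summed over 5 hippocampal markers, WT libraries 1 and 2 held 24514 and 21236 normalized counts, against 2779 to 5211 in the other 10 libraries. Summed over 7 striatal markers, WT library 3 and the 4-month *Gde2*KO libraries held 29177 to 71228, against 3253 and 5222 in WT libraries 2 and 1 and 6480 to 19144 at 19 months. Values without WT libraries 1 and 2 are given where they change a call. The part of these markers in the age differences was not tested.

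Per length, *Bcas1* and *Olig1* were the most abundant of the 10 in every group. In 4-month WT they averaged 105 ± 11.9 and 85.2 ± 5.20 TPM (SD, n = 3), ranked without overlap. *Sox10* (23.3 ± 1.73 TPM), *Myrf* (20.4 ± 2.77), *Olig2* (19.7 ± 2.31), *Pdgfra* (18.7 ± 1.22) and *Gpr17* (15.6 ± 2.86) followed, each overlapping its neighbour in that order. *Neu4* (6.60 ± 0.825 TPM), *Cspg4* (6.05 ± 0.328) and *Enpp6* (4.39 ± 1.32) were lowest and also overlapped each other in turn. In 19-month WT, *Gpr17* averaged 5.85 ± 0.701 TPM and overlapped *Cspg4* (5.32 ± 0.544 TPM), a gene it had exceeded without overlap at 4 months. *Enpp6* ended that order at 2.14 ± 0.989 TPM.

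**Figure D1:**
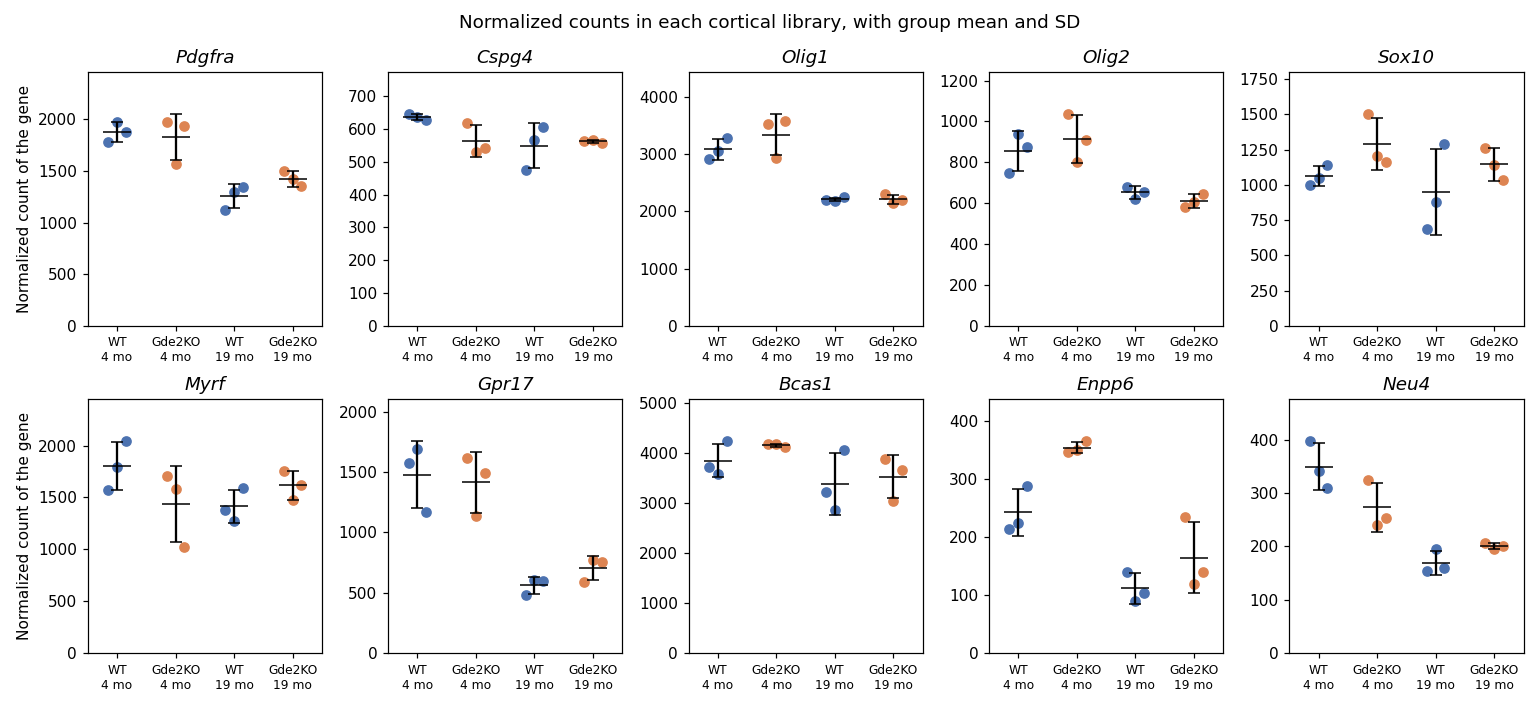
Normalized counts (y axes, from 0) of each of the 10 genes in the 4 groups (x axes), with 1 point per library and bars for the mean and SD of 3 libraries. *Gpr17* lay between 1132 and 1691 at 4 months and between 480 and 773 at 19 months, whereas *Myrf* and *Sox10* overlapped between ages.

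The age comparison asked how the genes differed between 4 and 19 months, as the mean of the differences in WT and in *Gde2*KO. Calls needed a limma p, adjusted by Benjamini-Hochberg over all 18731 genes tested, below 0.1 and a natural-log change above 0.5 (0.72 on the log2 scale). All 10 genes passed the filter on low values. The fit called 3 of them lower, *Gpr17*, *Enpp6* and *Neu4*, and none higher. Over all genes, 9.49% were called lower. By adjusted p alone, 7 of the 10 were lower, against 32% of all genes. The median log2 difference of the 10 was -0.47, beside -0.15 for all genes tested. With libraries rescaled by median ratios, the median of all genes was -0.04. The middle values of the 10 were then *Olig2* (-0.38) and *Pdgfra* (-0.37). By adjusted p alone *Bcas1* was then lost, and 4538 of 18721 genes were lower. The ages are different animals and differ in depth, so age and anything else that differed between the sets cannot be told apart.

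*Gpr17*, a receptor that marks committed precursors on the way to differentiation, had a log2 age difference of -1.19, beside -1.15 for *Enpp6*. It stood at 1574, 1691 and 1165 normalized counts in 4-month WT and at 1617, 1132 and 1495 in 4-month *Gde2*KO. At 19 months it stood at 480, 603 and 601 in WT and at 589, 773 and 752 in *Gde2*KO. Every library at 19 months lay below every library at 4 months. The level at 4 months was 2.28-fold that at 19 months (SE 0.13 on the log2 scale, limma adjusted p = 8.35e-05). In WT alone the log2 difference was -1.39 (SE 0.18, limma adjusted p = 0.000676) and in *Gde2*KO alone -0.999 (SE 0.18, adjusted p = 0.00591).

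*Enpp6*, a choline-specific phosphodiesterase gene used as a marker of newly forming oligodendrocytes, stood at 214, 225 and 287 normalized counts in 4-month WT and at 345, 350 and 364 in *Gde2*KO. At 19 months it stood at 140, 89.8 and 103 in WT and at 233, 118 and 140 in *Gde2*KO. In these counts the ages did not overlap within a genotype, and across genotypes only the shallow *Gde2*KO library A reached the 4-month WT range. In TPM the shallow 19-month WT library A (3.26) lay above 4-month WT library 1 (3.13). The log2 difference was -1.15 (SE 0.17, limma adjusted p = 0.000747), with -1.13 in WT and -1.17 in *Gde2*KO.

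*Neu4*, which encodes a sialidase, stood at 397, 341 and 311 normalized counts in 4-month WT, at 325, 241 and 253 in 4-month *Gde2*KO, at 154, 196 and 159 in 19-month WT and at 207, 196 and 201 in 19-month *Gde2*KO. The ages did not overlap in these counts, though they did in TPM (lowest 3.95 at 4 months, highest 3.99 at 19 months). Its log2 difference of -0.73 (SE 0.11, limma adjusted p = 0.000841) lay just past the size threshold. The call was lost under 9 of 20 alternatives, each time on size, with adjusted p up to 0.0133. These were pseudocount 5 (-0.72), gene TPM (-0.62), median-ratio scaling (-0.63), both shallow libraries left out (-0.71), and 4-month WT libraries 1 and 2 left out (-0.65). It was also lost without 4-month WT library 1 (-0.69), 4-month *Gde2*KO library 1 (-0.67), 19-month WT library A (-0.70) or 19-month WT library C (-0.71). In WT alone *Neu4* was called (-1.04, SE 0.16, limma adjusted p = 0.00195) and in *Gde2*KO alone it was not (-0.43, SE 0.16, adjusted p = 0.0745). Without 4-month WT libraries 1 and 2, left out after their marker levels were seen, the WT difference was -0.88 with an adjusted p of 0.101, so that call was lost.

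*Bcas1*, a gene of early myelinating cells that stays on in the myelin-forming stage, ranged from 3590 to 4234 normalized counts at 4 months (median 4144, 6 libraries) and from 2860 to 4068 at 19 months (median 3440). The ages overlapped. The log2 difference was -0.22 (SE 0.09, limma adjusted p = 0.0778), below the size threshold. With median-ratio scaling it was -0.12 with an adjusted p of 0.342.

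Upstream sequence is shown for *Enpp6* and *Neu4*, the called genes with an entry in the RefSeq promoter table used here (GRCm38.p6), and for *Cspg4* as a gene whose ages overlapped. Of the 10 genes, 5 had an entry. The 250 bases before the RefSeq start are given 5′ to 3′, in lower case. Capitals mark CANNTG, the E-box that bHLH proteins such as OLIG2 can bind, or ACAAAG or ACAATG, short forms of the SOX motif, on either strand.
Enpp6, chr8:46986637-46986886, plus strand: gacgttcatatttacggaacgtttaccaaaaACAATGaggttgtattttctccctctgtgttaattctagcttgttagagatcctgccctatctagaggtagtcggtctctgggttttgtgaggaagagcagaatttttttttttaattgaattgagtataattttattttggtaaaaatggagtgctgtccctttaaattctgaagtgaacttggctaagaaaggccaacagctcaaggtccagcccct
Neu4, chr1:94020243-94020492, plus strand: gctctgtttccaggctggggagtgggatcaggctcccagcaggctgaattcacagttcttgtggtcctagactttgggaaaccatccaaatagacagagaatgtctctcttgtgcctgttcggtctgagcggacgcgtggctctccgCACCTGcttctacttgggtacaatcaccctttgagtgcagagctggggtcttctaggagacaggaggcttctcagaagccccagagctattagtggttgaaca
Cspg4, chr9:56864854-56865103, plus strand: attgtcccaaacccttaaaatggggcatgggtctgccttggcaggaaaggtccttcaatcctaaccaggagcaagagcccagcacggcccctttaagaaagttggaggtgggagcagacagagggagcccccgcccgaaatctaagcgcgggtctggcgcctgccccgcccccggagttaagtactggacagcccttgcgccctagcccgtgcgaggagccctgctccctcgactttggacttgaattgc
*Enpp6* held 1 ACAATG, *Neu4* held 1 CANNTG and *Cspg4* held none of the motifs in this window. Of 32851 promoters of the same length, 66.2% held CANNTG, 16.5% ACAAAG and 10.7% ACAATG. The matches are a description of the letters and no site of binding.

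In GRCm38 (GENCODE annotation), *Enpp6* spans chr8:46986887-47096762 and *Neu4* chr1:94020451-94028334, both on the plus strand. *Cspg4* spans chr9:56865033-56899870 and *Pdgfra* chr5:75152292-75198215, also on the plus strand. The sequences shown above for *Neu4* and *Cspg4* run past these annotated starts, so their last bases lie within the annotated genes. *Olig2* (chr16:91225457-91228677) and *Olig1* (chr16:91269772-91271933) are neighbours on the plus strand, 41.1 kb apart. *Sox10* (chr15:79154908-79165240), *Myrf* (chr19:10208272-10240748) and *Bcas1* (chr2:170346991-170427845) lie on the minus strand, as does *Gpr17* on chromosome 18.

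Both OLIG genes were lower at 19 months without passing the size threshold. *Olig1*, a bHLH factor of the lineage, stood at 2924, 3060 and 3277 normalized counts in 4-month WT and at 3527, 2936 and 3576 in 4-month *Gde2*KO. At 19 months it stood at 2204, 2180 and 2245 in WT and at 2297, 2146 and 2194 in *Gde2*KO. The 19-month libraries lay within a narrow band below every 4-month library. The log2 difference was -0.54 (SE 0.07, limma adjusted p = 0.000201) and -0.43 with median-ratio scaling. *Olig2*, the bHLH factor needed to specify the lineage, ranged from 748 to 1036 normalized counts at 4 months (median 893) and from 581 to 680 at 19 months (median 633). Its ages did not overlap either, with a log2 difference of -0.48 (SE 0.09, limma adjusted p = 0.00189).

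*Pdgfra*, the receptor through which PDGF keeps precursors dividing, stood at 1780, 1978 and 1874 normalized counts in 4-month WT and at 1976, 1571 and 1935 in *Gde2*KO. At 19 months it stood at 1124, 1293 and 1344 in WT and at 1501, 1421 and 1350 in *Gde2*KO. The ages did not overlap in these counts, though they did in TPM (lowest 14.7 at 4 months, highest 15.9 at 19 months). The log2 difference was -0.47 (SE 0.08, limma adjusted p = 0.00124), below the size threshold. Fibroblasts of the meninges and vessels also express *Pdgfra*. Of 5 fibroblast markers, 2 lay above 0 and 3 below (median -0.002), with 1 called lower, and their part in *Pdgfra* was not tested. *Cspg4*, which encodes the proteoglycan NG2 of precursors and also of pericytes, ranged from 531 to 644 normalized counts at 4 months (median 623) and from 475 to 607 at 19 months (median 565). The ages overlapped, with a log2 difference of -0.11 (95% interval -0.28 to 0.06, limma adjusted p = 0.293). The 5 pericyte markers had a median log2 difference of 0.08, with 4 above 0, 1 higher by adjusted p alone and none called. Their part in *Cspg4* was not tested.

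*Sox10* and *Myrf* overlapped between ages. *Sox10*, an HMG-box factor expressed across the lineage, ranged from 998 to 1501 normalized counts at 4 months (median 1151) and from 690 to 1287 at 19 months (median 1086). Its log2 difference was -0.19 (95% interval -0.48 to 0.11, limma adjusted p = 0.290). *Myrf*, the factor that turns on myelin genes, ranged from 1021 to 2040 normalized counts at 4 months (median 1646) and from 1269 to 1758 at 19 months (median 1532). Its log2 difference was -0.07 (95% interval -0.35 to 0.20, limma adjusted p = 0.656), and 0.03 with median-ratio scaling. In normalized counts, 5 of the 10 genes had every 19-month library below every 4-month library, against 13.7% of all genes tested. They were *Pdgfra*, *Olig1*, *Olig2*, *Gpr17* and *Neu4*. In TPM *Pdgfra* and *Neu4* overlapped between ages.

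**Figure D2:**
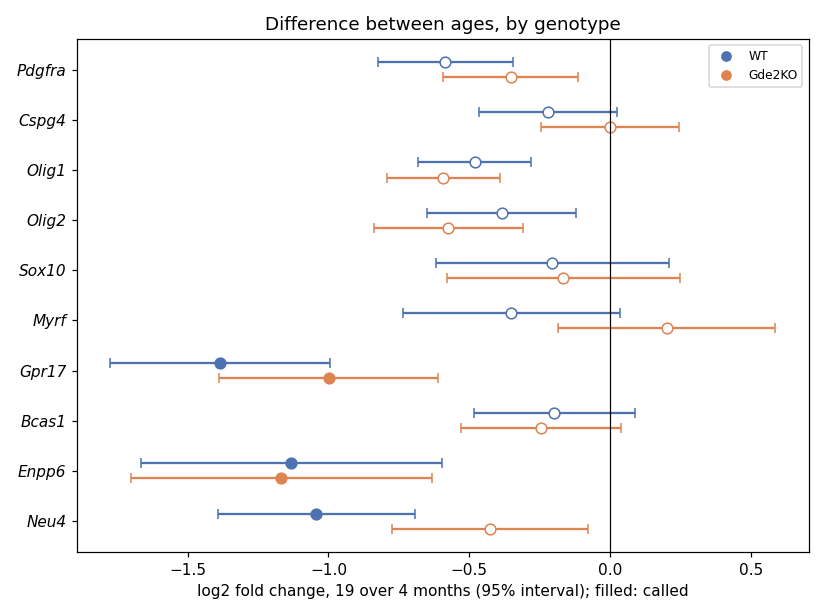
Log2 fold change of 19 over 4 months (x axis) for each gene (y axis) in WT and in *Gde2*KO, with 95% intervals from limma and filled points for called differences. *Gpr17* and *Enpp6* were called in both genotypes and *Neu4* in WT alone, a difference between genotypes that did not pass its own test (adjusted p = 0.368).

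Within each genotype the calls were close to those of the mean. In WT, 3 of the 10 genes were called lower (*Gpr17*, *Enpp6*, *Neu4*), beside 7.4% of all genes. In *Gde2*KO, 2 were called lower (*Gpr17*, *Enpp6*), beside 9.32% of all genes. The share of all called genes that were higher moved from 21.5% to 43.6% in *Gde2*KO and from 32.3% to 44.1% in the mean of genotypes when libraries were rescaled by median ratios.

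The genotype comparison at 4 months asked whether loss of GDE2 altered the genes in young adults. None of the 10 was called, and 0.126% of the 19035 genes tested were. By unadjusted p below 0.05, 1 of the 10 passed, *Enpp6*, beside 10.6% of all genes. In normalized counts, WT and *Gde2*KO libraries were apart for 3 of the 10 (*Enpp6*, *Sox10* and *Cspg4*), against 15.4% of all genes. In TPM the libraries of all 3 overlapped, and those of *Neu4* were apart. *Enpp6* averaged 242 ± 39.8 normalized counts in WT and 353 ± 9.69 in *Gde2*KO (SD, n = 3), a log2 difference of 0.56 (95% interval 0.17 to 0.94, limma adjusted p = 0.463). It was 0.69 without WT library 3, the WT library rich in striatal markers (limma adjusted p = 0.04999, still below the size threshold). That fit called 1510 of 18798 genes, against 24 of 19035 with every library kept. The *Enpp6* difference was 0.30 without WT libraries 1 and 2, the hippocampus-rich ones. *Sox10* averaged 1063 ± 73.0 in WT and 1288 ± 186 in *Gde2*KO (log2 0.27, 95% interval -0.06 to 0.60), and *Cspg4* averaged 637 ± 8.43 and 563 ± 48.1 (log2 -0.18, 95% interval -0.48 to 0.12).

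The 12 mature myelin genes lay above 0 at 4 months, 12 of 12 with none called (median 0.27, beside 0.11 for all genes). The 7 striatal markers did so too (median 2.08, none called). Also above 0 were 5 of 5 microglial (median 0.33), 5 of 5 endothelial (0.31), 4 of 5 neuronal (0.35) and 4 of 5 pericyte markers (0.13). Below 0 lay 5 of 5 hippocampal (median -1.63), 4 of 5 astrocyte (-0.13) and 4 of 5 fibroblast markers (-0.44). None of these markers was called. The part of these genes in the *Enpp6* and *Sox10* values was not tested.

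The other 7 genes ranged at 4 months from a log2 difference of -0.36 (*Neu4*, SE 0.18) to 0.11 (*Bcas1*, SE 0.12), with overlapping libraries in normalized counts. *Myrf* was at -0.35 (95% interval -0.84 to 0.13), with *Gde2*KO library 3 lowest at 1021 normalized counts and the other 2 at 1711 and 1582. *Pdgfra* (-0.04, 95% interval -0.36 to 0.27) and *Gpr17* (-0.06, 95% interval -0.51 to 0.39) lay near 0, and the direction of *Gpr17* depended on the WT libraries used (0.26 without WT libraries 1 and 2).

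At 19 months the same question was asked in aged cortex. None of the 10 genes was called, beside 0.0969% of the 18583 genes tested. *Gpr17* alone had an unadjusted p below 0.05, beside 6.91% of all genes. It averaged 561 ± 70.4 normalized counts in WT and 705 ± 101 in *Gde2*KO (SD, n = 3), with overlapping libraries and a log2 difference of 0.33 (95% interval 0.01 to 0.64, limma adjusted p = 0.711). For 2 of the 10, *Pdgfra* and *Neu4*, the genotypes did not overlap in normalized counts, against 14.2% of all genes. In TPM both of these overlapped, and *Gpr17* did not. *Pdgfra* averaged 1254 ± 115 in WT and 1424 ± 75.4 in *Gde2*KO (log2 0.19, 95% interval -0.01 to 0.38), and *Neu4* averaged 170 ± 22.7 and 201 ± 5.71 (log2 0.26, 95% interval -0.08 to 0.59). *Enpp6* was at 0.52 (95% interval -0.12 to 1.17, limma adjusted p = 0.734), and at 0.24 without the shallow *Gde2*KO library A. Over the 10, 9 differences were above 0, with a median of 0.19 beside -0.02 for all genes. Without both shallow libraries 6 lay above 0, with *Cspg4* at -0.063, *Olig1* at -0.028, *Bcas1* at -0.032 and *Olig2* at -0.027. The 12 mature myelin genes were also above 0 at 19 months, 12 of 12 with none called (median 0.28), and their summed level spanned 86516 to 114837 normalized counts in WT and 101504 to 131903 in *Gde2*KO. Of the other markers, 7 of 7 striatal (median 1.004, none called), 5 of 5 hippocampal (median 0.41, 1 called) and 5 of 5 astrocyte (median 0.14, none called) lay above 0, and 5 of 5 endothelial lay below (median -0.21, none called). The part of these genes in the 19-month values was not tested.

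**Figure D3:**
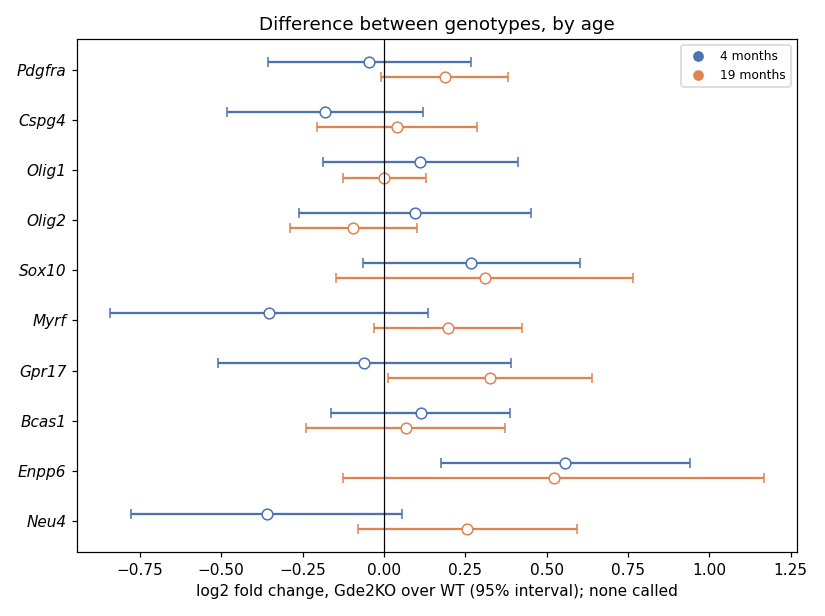
Log2 fold change of *Gde2*KO over WT (x axis) for each gene (y axis) at 4 and at 19 months, with 95% intervals from limma. No difference was called, and *Enpp6* lay highest at both ages (0.56 and 0.52).

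The interaction asked whether the genotype difference itself differed between ages. None of the 10 genes passed at adjusted p below 0.1, beside 0.048% of all genes. By unadjusted p below 0.05, 2 of the 10 passed, beside 12.9% of all genes. *Neu4* was lower in *Gde2*KO at 4 months and higher at 19 months (interaction log2 0.62, 95% interval 0.12 to 1.11, limma adjusted p = 0.368), and *Myrf* had the same order of signs (0.55, 95% interval 0.01 to 1.10, adjusted p = 0.385). The other genes lay between -0.19 (*Olig2*) and 0.39 (*Gpr17*), beside a median of -0.15 for all genes.

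Transcript usage was compared for the 7 genes with several transcripts, by limma's diffSplice on the log2 normalized counts of the transcripts. A gene was called at adjusted p below 0.1 in that test and a change above 10 percentage points in a transcript's share of its gene's TPM. None of the 7 was called between genotypes at 4 months (1.12% of genes with several transcripts called), at 19 months (0.171%) or between ages (4.21%), and none had an unadjusted p below 0.05 in these 3 comparisons. *Olig1*, *Olig2* and *Gpr17* have a single annotated transcript. *Sox10* and *Bcas1* had a dominant transcript. ENSMUST00000040019.4 held 87.0 ± 2.78% of *Sox10* TPM in 4-month WT (SD, n = 3), and ENSMUST00000154650.7 held 73.7 ± 0.939% of *Bcas1*. *Neu4* was divided between ENSMUST00000050890.7 (47.1 ± 0.487% in 4-month WT, 42.1 ± 5.39% in 19-month WT) and ENSMUST00000190212.6, which held the rest. *Cspg4* had ENSMUST00000217052.1 at 46.0 ± 2.11% in 19-month WT and 29.2 ± 13.7% in 19-month *Gde2*KO (diffSplice adjusted p = 0.956). That *Gde2*KO share was 13.6% in the shallow library A, and 34.5% and 39.5% in B and C. For *Enpp6*, ENSMUST00000039840.14 held 94.3% in the shallow 19-month *Gde2*KO library A, and 42.9% and 59.4% in B and C.

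Other genes of the lineage, in lists drawn up from their known roles, were compared between ages in the same fit. Of 13 other precursor genes, 3 fell and none rose, with 8 lower by adjusted p alone and a median log2 difference of -0.55. *C1ql1* (log2 -0.93, SE 0.12), *Lhfpl3* (-0.78, SE 0.14) and *Emid1* (-0.95, SE 0.19) fell. *Ptprz1*, a receptor phosphatase of precursors, was lower below the size threshold (-0.63, SE 0.07), and *Sox6*, which holds precursors undifferentiated, was at 0.01 (SE 0.11). Of 11 other committed or newly formed oligodendrocyte genes tested, none was called and 5 were lower by adjusted p alone (median -0.29). *Fyn*, a kinase of morphological differentiation, was among them (-0.42, SE 0.08).

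Mature myelin genes had a larger median difference than the 10 genes, with 6 of 12 falling, 10 lower by adjusted p alone and a median log2 difference of -0.77. *Ugt8a*, which makes myelin galactolipids, fell by 1.08 (SE 0.12), *Mog* by 0.91 (SE 0.14) and *Ermn* by 0.82 on the log2 scale (SE 0.13). *Mbp* (-0.16, SE 0.10) and *Mobp* (-0.11, SE 0.09) did not pass. Summed, the 12 spanned 121524 to 169930 normalized counts at 4 months and 86516 to 131903 at 19 months. Of 18 regulators of the lineage, *Id4*, an inhibitor of differentiation, fell (-0.997, SE 0.13) and *Sox17* rose (0.86, SE 0.10), with a median of -0.07. None of the genes in these 4 lists was called between genotypes at either age.

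**Figure D4:**
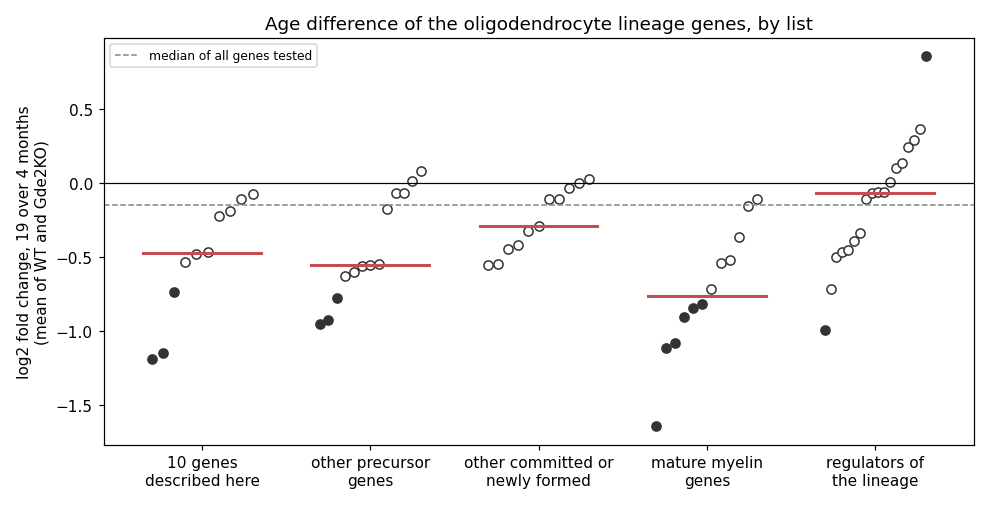
Log2 fold change of 19 over 4 months (y axis, mean of WT and *Gde2*KO) for each gene of the 10 described and of 4 other lineage lists (x axis), with filled points for called genes, red bars for list medians and a dashed line for the median of all genes tested. The medians were -0.47 for the 10 genes, -0.55, -0.29 and -0.77 for the other precursor, committed and myelin lists, and -0.07 for the regulators.

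Markers of other cells and regions also differed between ages. Of 7 striatal markers 4 fell and of 5 hippocampal markers 3 fell, while 2 of 5 markers of dividing cells rose. Of 5 markers each, 1 astrocyte, 1 fibroblast and 1 immature neuron marker fell and 1 endothelial marker rose, and no neuronal, microglial or pericyte marker was called. Between genotypes, 1 hippocampal marker, *Fibcd1*, was called, higher in *Gde2*KO at 19 months (log2 1.44, SE 0.15).

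The genes whose levels most resembled those of 8 of the 10 genes over the 12 libraries were sought among 12973 genes with a mean of at least 100 normalized counts, by Pearson's r on the log2 scale. These r share the libraries, their depth and the age difference, and are a description. *Gpr17* was most like *Aldh1b1* (r = 0.979), *Neu4* most like *D430019H16Rik* (0.979) and *Bcas1* most like *S1pr5*, a receptor of the oligodendrocyte lineage (0.939). For the transcription factors the most alike were *Zcchc12* for *Olig1* (0.982), *Arih1* for *Olig2* (0.962) and *Efcc1* for *Sox10* (0.921). *Pdgfra* was most like *Eid2b* (0.965) and *Cspg4* most like *Acaca* (0.873). With group means removed, r was 0.822 for *Gpr17* and 0.908 for *Bcas1* with the same partners.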

How the data were processed

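PolyA RNA libraries (NEBNext Ultra II) from cortex were sequenced on an Illumina HiSeq. The submitters' processing notes name bcl2fastq 2.17, Trimmomatic 0.36, STAR 2.5.2b, kallisto and sleuth, with GRCm38. The authors quantified transcripts with kallisto, and the deposited normalized counts and TPM are scaled signal per transcript, not raw counts. Transcripts were summed to genes, leaving out 1673 transcripts without a gene (0.541% to 0.605% of a library). Genes with at least 5 normalized counts in 47% of the libraries of a fit were kept, and log2(normalized count + 0.5) was tested with limma 3.58.1 (R 4.3.3, intensity trend, two-sided, Benjamini-Hochberg over all genes), so fold changes of low genes are understated. Genotypes were compared within an age on 6 libraries, and ages and the interaction on 12. The scripts were tested on simulated data. Named genes were all 10 members in every comparison, and for the context lists up to 4 genes of smallest adjusted p between ages plus *Emid1*, *Sox6*, *Mbp* and *Mobp*, chosen after their values were seen. The members, lists and the striatal and hippocampal markers were chosen with earlier results of these data known. The 19-month libraries, unnumbered in the deposited columns, are lettered A to C by column. The replicate numbers at 4 months did not pair the libraries (correlation of deviations between same-numbered libraries 0.06, 0.01 and -0.05). Some genes that the rule for named genes would give are not reported here.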

Additional observations from a re-analysis of the deposited data

How the results depend on the processing

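No member was called between genotypes at 4 or 19 months under another pseudocount, no filter, gene TPM, median-ratio scaling, no intensity trend, each library left out, at 19 months both shallow libraries left out, or at 4 months WT libraries 1 and 2 left out. None was called in transcript usage under another pseudocount, a minimum mean of 20 a transcript, the Simes test, each library left out or, where they entered, both shallow libraries left out. Some members passed on adjusted p under an alternative and missed the call on the share threshold. The lowest diffSplice adjusted p was 0.00101 for *Myrf* and 0.00215 for *Enpp6* at 4 months. At 19 months it was 0.00609 for *Sox10* and 0.0997 for *Pdgfra*. At 4 months the replicate block, with the replicate number as a block, left 0 members called and 21 genes overall. No paired analysis was possible at 19 months because those columns are unnumbered. In the interaction, array weights called 3 members (*Olig1*, *Gpr17* and *Myrf*), but called 8744 of 18731 genes and stopped before convergence, and the cause was not tested. Between ages, the members called in the mean of genotypes numbered 3 or 2, with *Neu4* the gene lost under 9 of 20 alternatives. *Gpr17* and *Enpp6* stayed called under all 20. In *Gde2*KO the count was 2 throughout and in WT it was 3 except without 4-month WT libraries 1 and 2, an alternative chosen after seeing the data, where it was 2.

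Directions that turned were all of differences that were not called. At 4 months these were *Olig2* with median-ratio scaling (-0.0010), and *Gpr17* (0.26) and *Bcas1* (-0.027) without WT libraries 1 and 2. At 19 months, *Cspg4* was at -0.14 in gene TPM, and without both shallow libraries *Cspg4* was at -0.063, *Olig1* at -0.028 and *Bcas1* at -0.032. The interaction of *Olig1* was at 0.011 with median-ratio scaling. Between ages in *Gde2*KO, *Cspg4* was at -0.22 in gene TPM, -0.0021 without both shallow libraries and -0.14 with array weights, and *Myrf* was at -0.12 with array weights. Between ages in WT, *Sox10* was at 0.0020 without both shallow libraries, and *Myrf* in the mean of genotypes was at 0.029 with median-ratio scaling. Leaving out each library in turn turned the sign of *Pdgfra* (-0.11 to 0.060) and *Gpr17* (-0.22 to 0.093) at 4 months, of *Cspg4* (-0.060 to 0.12), *Olig1* (-0.026 to 0.023) and *Bcas1* (-0.047 to 0.21) at 19 months, and, between ages, of *Sox10* in WT (-0.45 to 0.0020) and of *Cspg4* (-0.041 to 0.070) and *Myrf* (-0.028 to 0.34) in *Gde2*KO. With 3 libraries a group, genotype differences may have been missed, and no detection limit was worked out. The 95% intervals given in the text are not adjusted for the number of genes tested. *Enpp6* at 4 months and *Gpr17* at 19 months had intervals that excluded 0 and were still not called. *Enpp6* and *Neu4* rest on few reads in the shallow libraries.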
